A study of Rattus norvegicus with 4 samples.

Results

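The genes described here are *Thop1*, which encodes thimet oligopeptidase, and 9 other genes for peptidases that work mainly inside the cell: *Nln*, *Prep*, *Erap1*, *Lnpep*, *Npepps*, *Lap3*, *Blmh*, *Tpp2* and *Dpp3*. They were chosen by name, and each of the 10 symbols matched 1 row of the 34773 genes in the deposited table. The question was whether peptidases with related substrates differed in transcript level when *Thop1* was disrupted. Of the 10 genes, 9 had enough counts to be tested, and *Lnpep* had none.

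Poly(A) RNA of 4 samples was sequenced from rat embryonic stem cells (ESCs). The 1 control library, labelled WT, is described in the paper as DA-5-3GFP, a line of unedited ESCs carrying a GFP reporter at *Rex1*. The 3 libraries labelled Thop1-KO are taken here, by the numbers in their titles alone, as the paper's subclones #1, #2 and #3 of that line, derived after Cas9 and a pair of guides against *Thop1* had been delivered with puromycin selection. All 4 libraries therefore share the reporter, and each subclone is 1 clone. The paper calls DA-5-3 diploid, while the deposited design text calls the cells haploid. The rat ESCs of the study were kept on feeder cells with LIF and inhibitors of MEK and GSK3. During selection the study set untransfected DA-5-3GFP beside the edited cells, and the control of the RNA-seq has the same name.

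Peptidases of the cytosol trim the short peptides that the proteasome leaves behind. In this chain TPP2 and the oligopeptidases THOP1 and NLN cut longer products, aminopeptidases such as LAP3, NPEPPS and BLMH remove single residues from the amino end, and DPP3 removes dipeptides. A few peptides escape into the endoplasmic reticulum, where ERAP1 trims them for MHC class I molecules. THOP1, NLN and PREP are also known for cutting neuropeptides such as neurotensin, bradykinin and angiotensin in vitro and in brain.

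The guides that define the Thop1-KO group are shown because every comparison rests on them. Both are designed spacer sequences of 20 bases, written 5′ to 3′, with the 12 bases next to the PAM in capitals.
Thop1 sgRNA 1: ccaccgtgAATCATCTGCGC
Thop1 sgRNA 2: gtacgaccGTGTGGGCGCCC
The GC content was 60% for sgRNA 1 and 75% for sgRNA 2. Their positions in the gene were not mapped, since no genome was used here. The primers with which the study measured *Thop1* by qPCR are shown as well, because they read a short stretch of the transcript, whereas the counts below cover all exons.
Thop1 qPCR primer forward: gagcgcacagcagatcagag
Thop1 qPCR primer reverse: ttgttcggagacacgtgctg

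The library totals ran from 15405499 to 17936544 counts on genes. Levels are given as CPM, the counts scaled to a common library total after TMM, and as FPKM, the deposited values per length, where genes are set against each other. Thop1-KO was set against the control with edgeR's quasi-likelihood test over 15028 genes, and genes with a Benjamini-Hochberg adjusted p-value under 0.05 were called DEGs. The spread comes from the 3 subclones alone, and an exact permutation of 1 library against 3 cannot give a one-sided p under 0.25. A difference of genotype and a difference of that single control culture cannot be told apart. Pluripotent cell markers were present in every library, with *Pou5f1* at 3347 FPKM and *Nanog* at 196 FPKM in the control. Summed over 8 rows they reached 7485 CPM in the control and 7296, 6065 and 7176 CPM in #1, #2 and #3, with *Tfcp2l1* called higher and *Utf1* called lower. Of 9 fibroblast markers with a row, *Dcn*, *Lum* and *Thy1* were at 0 in all libraries. The summed level of the list was 255 CPM in the control and 435, 849 and 564 CPM in #1, #2 and #3. Most of it was *Col1a1*, at 190 CPM in the control against 304, 555 and 374. Of 6 tested, 5 were higher and 1 lower, with a median log2 fold change of 1.33, and *Col5a1* was called higher. Primitive endoderm markers summed to 851 CPM against 1222, 1367 and 1784, nearly all of it *Lama1*. None of 6 tested was called, where 14.5% of all genes tested were. Of the 6, 5 were higher and 1, *Gata4*, lower, with a median log2 fold change of 1.72. At an unadjusted edgeR p under 0.05 there were 4 of 6, against 34.1% of all genes. Early differentiation markers summed to 16.7 against 7.63, 10.6 and 7.62, with *Nes* called lower. The part of other cells in the differences below was not tested. The number of DEGs depended on which subclones were included. It was 2174 with all libraries, 2009 without #1, 5563 without #2 and 459 without #3.

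*Thop1*, *Tpp2* and *Dpp3* were the members called. *Thop1* and *Tpp2* fell and *Dpp3* rose in Thop1-KO. That is 3 of the 9 tested genes, where 14.5% of all genes tested were called, and leaving aside the edited gene it is 2 of 8. In the lower direction 2 members were called against a background of 5.53%, and in the higher direction 1 against 8.94%. At an unadjusted p under 0.05 there were 6 of 9, against 34.1% of all genes. The median log2 fold change of the tested members was -0.42, beside 0.06 over all genes tested. The edited gene is part of these counts by direction, of the 6 of 9 and of the median. Without *Thop1*, 1 member was called lower and 1 higher, 5 of 8 had an unadjusted p under 0.05, and the median was -0.34.

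**Figure D1:**
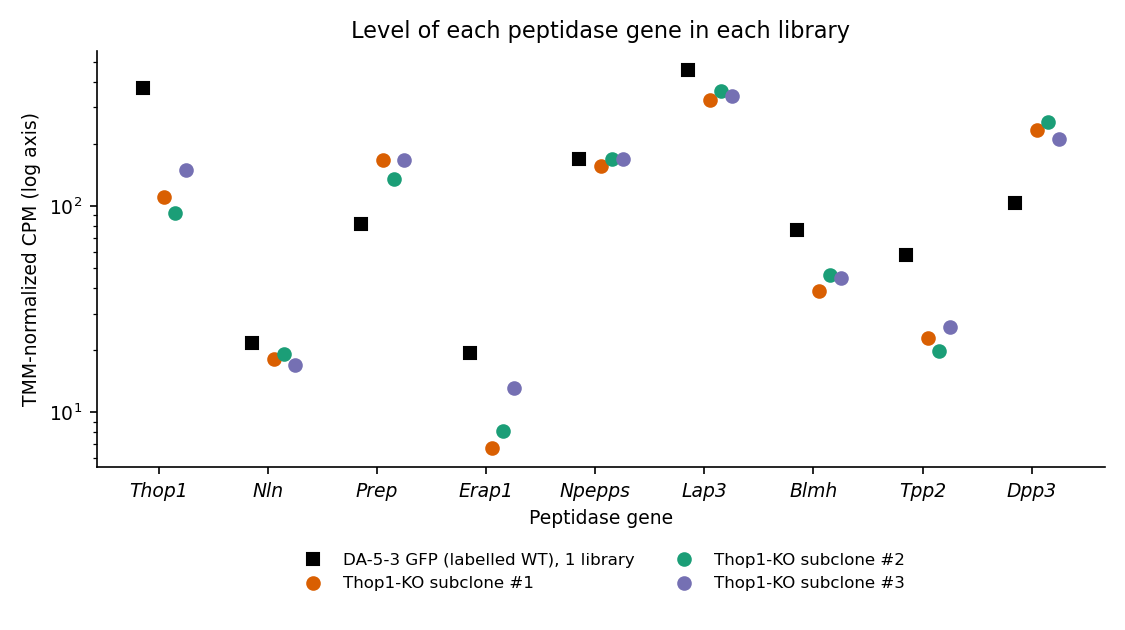
TMM-normalized CPM (log axis) of the 9 detected peptidase genes in the control library (black square) and in Thop1-KO subclones #1, #2 and #3 (coloured circles). The control lies above all subclones for *Thop1*, *Tpp2*, *Blmh*, *Erap1*, *Lap3*, *Nln* and, by less than 1 CPM from #2 and #3, *Npepps*, and below all of them for *Prep* and *Dpp3*.

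*Thop1* (ENSRNOG00000019924), the zinc metallopeptidase that was edited, has the coordinates chromosome 7, 11501146 to 11513581, minus strand, in the deposited annotation. It is protein coding, with 2489 bases of exon sequence and no overlapping gene in the table. The control library held 5500 counts, and subclones #1, #2 and #3 held 1843, 1635 and 2680. That is 370 CPM in the control against 110, 92.5 and 149 CPM. All subclones lay below the control, but #3 kept more transcript than the others, and the coefficient of variation among subclones was 24.8%. The log2 fold change was -1.66 (standard error 0.29, 95% interval -2.34 to -0.98, edgeR adjusted p = 0.0158). Under limma the call was lost with a pseudocount of 0.1 (adjusted p 0.0729) and when no filter was applied (0.356). Counts over whole exons do not tell an edited transcript from an intact one.

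The genes next to *Thop1* were examined because a change at the locus could reach them. *Sgta*, which lies 8416 bases away, was at 210, 236 and 229 CPM in #1, #2 and #3 and at 283 in the control. Its log2 fold change was -0.33 (standard error 0.22, edgeR adjusted p = 0.316), so it did not pass the test. *Creb3l3* on the other side, 1863 bases away, was covered by 3 counts in the control and by 2, 3 and 11 in the subclones, too few for a difference to be detectable.

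*Nln* (ENSRNOG00000011561, chromosome 2, 34087880 to 34185812, minus strand) encodes neurolysin, the M3 family relative of THOP1 with overlapping neuropeptide substrates. Its counts were 322 in the control and 302, 340 and 305 in the subclones. In CPM these were 21.7 against 18.01, 19.23 and 16.97. The 4 libraries were close together, with the control slightly above the subclones and a coefficient of variation of 6.25% among them. *Nln* had a log2 fold change of -0.26 (95% interval -0.97 to 0.44, edgeR adjusted p = 0.560), and the data still allow changes within that interval. Within each library, *Thop1* stood at 23.0 times the FPKM of *Nln* in the control and at 8.22, 6.47 and 11.8 times in the subclones.

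*Prep* (ENSRNOG00000051061, chromosome 20, 50172618 to 50269992, plus strand) encodes prolyl endopeptidase, a serine oligopeptidase that cuts after proline. It was at 167, 134 and 168 CPM in #1, #2 and #3 and at 81.5 in the control. Each subclone was above the control, at 205%, 165% and 206% of it. For *Prep* the log2 fold change was 0.94 (95% interval 0.31 to 1.57), and the adjusted p of 0.0585 from edgeR did not pass 0.05. DESeq2's Wald test, the tool of the study, called it with an adjusted p of 0.0275.

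Of the M1 aminopeptidases, a family of zinc enzymes, none was called. *Erap1* (ENSRNOG00000009997, chromosome 2, 1410934 to 1449733, plus strand) held 288 counts in the control and 112, 144 and 236 in the subclones, or 19.4 CPM against 6.68, 8.15 and 13.1. All subclones were below the control, yet #3 stood at 67.8% of it and #1 at 34.5%, and the coefficient of variation of 36.3% was the highest among the 9 genes. For *Erap1* the log2 fold change was -1.06 (95% interval -2.07 to -0.04, edgeR adjusted p = 0.134).

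*Npepps* (ENSRNOG00000023095, chromosome 10, 85140370 to 85222861, minus strand) encodes the puromycin-sensitive aminopeptidase of the cytosol. It was at 155, 168.2 and 167.7 CPM in #1, #2 and #3 and at 168.4 in the control. Subclones #2 and #3 were level with the control, and #1 was at 92.3% of it. Its log2 fold change was -0.04 (95% interval -0.58 to 0.50, edgeR adjusted p = 0.917), and its sign turned under scaling by library size only and without #1.

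*Lnpep* (ENSRNOG00000047387, chromosome 1, 59297294 to 59347472, minus strand), the insulin-regulated aminopeptidase of endosomes, was listed at 0 counts in all 4 libraries. A second row of the table with the same protein name, LOC108348118 (ENSRNOG00000055229, chromosome 1, 68436593 to 68488427, plus strand), was also at 0 in all of them. How reads that match both loci were counted is not given in the sources used here, and whether these zeros reflect the transcript or the counting was not tested.

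*Lap3* (ENSRNOG00000003289, chromosome 14, 70102814 to 70121797, minus strand), a leucine aminopeptidase, was the most abundant member by FPKM in every library. It was at 324, 362 and 339 CPM in #1, #2 and #3 and at 456 in the control. The subclones kept 71.0% to 79.3% of the control level. The log2 fold change was -0.42 (95% interval -0.91 to 0.08, edgeR adjusted p = 0.203), which did not pass the test.

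*Blmh* (ENSRNOG00000003563, chromosome 10, 63197364 to 63240332, minus strand) encodes bleomycin hydrolase, a cysteine aminopeptidase. It was at 38.5, 46.2 and 44.5 CPM in #1, #2 and #3 and at 76.2 in the control. The subclones were close together, at 50.5% to 60.7% of the control. *Blmh* had a log2 fold change of -0.82 (95% interval -1.42 to -0.23), with an adjusted p of 0.0695 from edgeR. It passed with each library corrected for gene length (0.0330) and without #2 (0.0104).

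*Tpp2* (ENSRNOG00000011194, chromosome 9, 50581234 to 50744803, plus strand) encodes tripeptidyl peptidase 2, a giant serine peptidase that takes tripeptides off long proteasome products. The control held 855 counts against 384, 350 and 463 in the subclones. In CPM these were 57.5 against 22.9, 19.8 and 25.8, which puts the subclones at 34.4% to 44.8% of the control. *Tpp2* fell by 1.33 on the log2 scale (standard error 0.27, 95% interval -1.98 to -0.69, edgeR adjusted p = 0.0245). Without #3 its log2 fold change was -1.43 and its adjusted p 0.101. Limma on log2(FPKM + 0.1) gave an adjusted p of 0.0762, and limma without a filter 0.237. The U6 rows that overlap *Tpp2* had 0 counts.

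*Dpp3* (ENSRNOG00000031485, chromosome 1, 220166127 to 220188541, minus strand) encodes a zinc dipeptidyl peptidase of the cytosol that shortens enkephalins and angiotensins. The control held 1529 counts against 3898, 4481 and 3785 in the subclones. In CPM these were 103 against 232, 253 and 211, with the subclones between 205% and 246% of the control. *Dpp3* was 2.26-fold higher in Thop1-KO (log2 fold change 1.17, standard error 0.25, 95% interval 0.58 to 1.77, edgeR adjusted p = 0.0282). The call was lost without #3 (adjusted p 0.113) and with each library corrected for gene length (0.0656). It was also lost with limma on log2(FPKM + 0.1) (adjusted p 0.0891) and with limma without a filter (0.237).

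**Figure D2:**
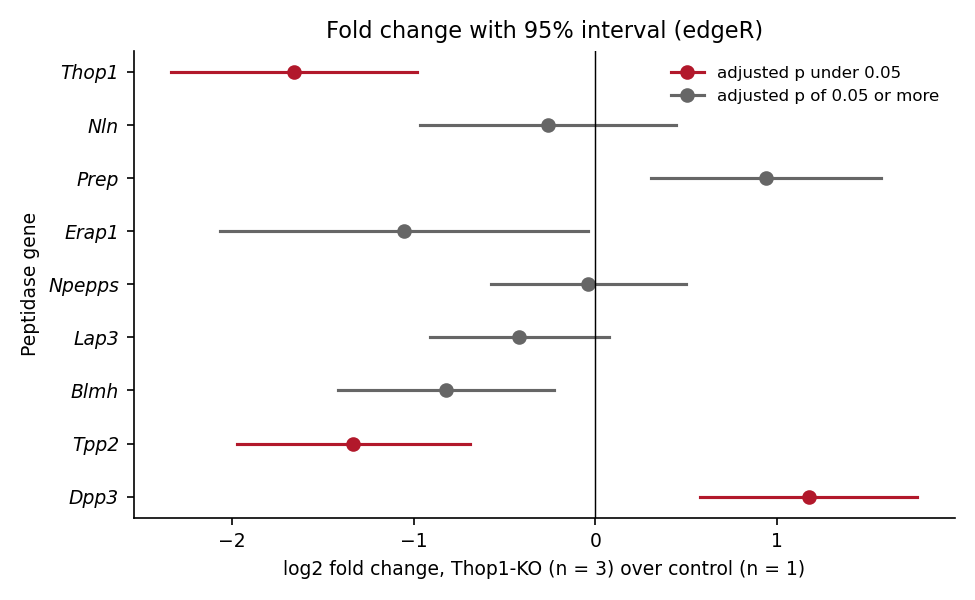
Log2 fold change of Thop1-KO (3 subclones) over the control (1 library) for the 9 tested peptidase genes, with unadjusted 95% intervals from edgeR as horizontal bars. *Thop1* and *Tpp2* lie to the left and *Dpp3* to the right of 0 with an adjusted p under 0.05 (red); the intervals of *Nln*, *Npepps* and *Lap3* include 0.

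The control lay outside the range of the subclones for all 9 tested members, above it in 7 and below it in 2. This was the case for 75.7% of all genes tested, so the count is no result about peptidases. Among the subclones, the coefficient of variation was between 4.42% and 13.1% for every tested member except *Thop1* and *Erap1*. Over all genes tested its lower quartile was 13.1% and its median 23.4%, and no test was made of the difference.

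Per length, the members spanned a wide range. In the control, FPKM ran from 206 for *Lap3* through 147 for *Thop1*, 40.5 for *Npepps*, 38.9 for *Dpp3*, 29.3 for *Prep*, 28.9 for *Blmh*, 8.62 for *Tpp2* and 6.38 for *Nln* to 3.80 for *Erap1*. *Thop1* was thus the member with the second highest level, above 97.6% of all genes in the table. In the subclones the order changed. *Dpp3* followed *Lap3* with 87.7 ± 8.65 FPKM (SD, n = 3), then came *Prep* with 56.2 ± 6.75 (SD, n = 3), *Thop1* with 46.3 ± 11.1 (SD, n = 3) and *Npepps* with 39.3 ± 1.502 (SD, n = 3). The mean ± SD of *Thop1* overlapped those of its neighbours in that order, *Prep* and *Npepps*. Within libraries, the FPKM of *Prep* was 1.38, 1.32 and 1.02 times that of *Thop1* in #1, #2 and #3 and 0.200 times in the control, while *Thop1* was below *Npepps* in #2 only among the subclones. At the low end, *Nln* with 5.31 ± 0.366 FPKM (SD, n = 3) passed *Tpp2* with 3.41 ± 0.424 (SD, n = 3), and *Erap1* was lowest with 1.82 ± 0.642 (SD, n = 3).

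The summed FPKM of the members was 509 in the control and 403, 413 and 416 in #1, #2 and #3. This sum includes the edited gene. Without *Thop1*, the members summed to 984 CPM in the control and to 965, 1011 and 985 CPM in #1, #2 and #3. The shares below are of the sum with *Thop1*, so a smaller *Thop1* part raises the shares of the others. *Thop1* made up 28.8% of that sum in the control and 10.9%, 8.89% and 14.0% in the subclones. For *Dpp3* the share was 7.64% in the control and 22.0%, 23.2% and 18.9% in the subclones. For *Prep* it was 5.76% against 15.1%, 11.7% and 14.3%. *Lap3* held 40.5% in the control and 36.4% to 39.6% in the subclones.

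**Figure D3:**
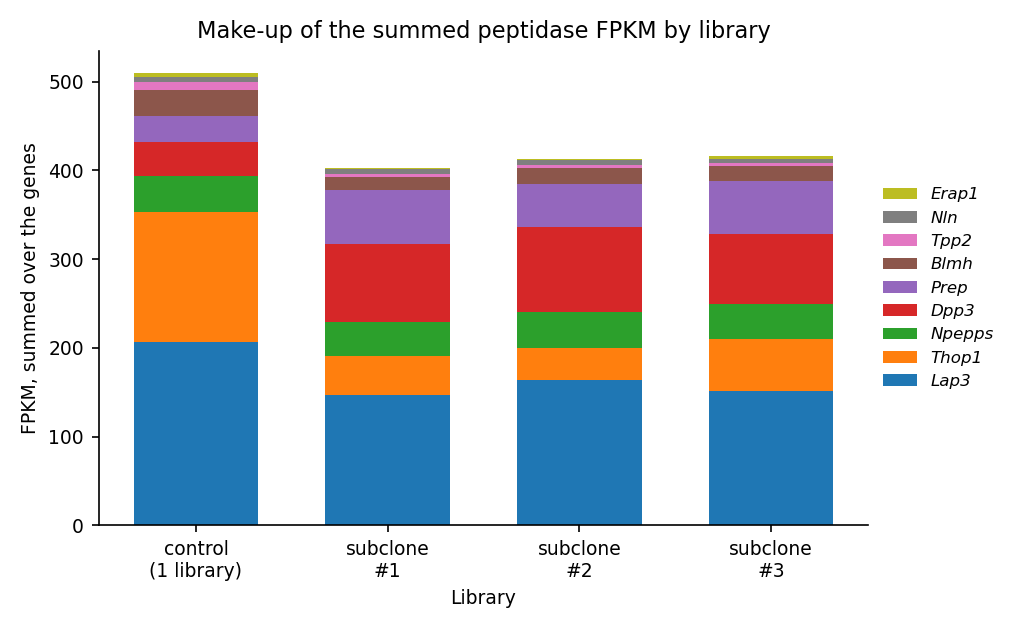
FPKM summed over the 9 detected peptidase genes in each library, stacked by gene, for the control and Thop1-KO subclones #1, #2 and #3. The sum is 509 in the control and 403 to 416 in the subclones, with a smaller *Thop1* layer and larger *Dpp3* and *Prep* layers in each subclone. Without *Thop1*, the summed CPM of the members is 984 in the control and 965 to 1011 in the subclones.

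Other intracellular peptidases were taken from a list of 25 genes, of which 23 had a row and all of these were tested. By edgeR 0 of the 23 were called at an adjusted p under 0.05, where 14.5% of all genes were, and 7 had an unadjusted p under 0.05, where 34.1% of all genes did. Leaving out #2 called 7, beside 37.8% of all genes in that fit. DESeq2 called 2, both lower, where it called 3000 of the 14115 genes that it gave an adjusted p. In simulated counts with 187 of 14504 genes changed 2-fold, the same edgeR fit called 8 of the 187. That share of changed genes is far below the 14.5% called in these data, and the adjusted threshold depends on it. The rate of calls in the simulation therefore does not carry over to these data, but a gene not called may still differ. The median log2 fold change of the 23 was 0.02, with 12 genes above 0 and 11 below it. The lowest were *Ide*, at 31.7, 77.6 and 38.0 CPM in #1, #2 and #3 against 132 (log2 fold change -1.42, edgeR adjusted p = 0.0793), and *Metap2* (-1.23, edgeR adjusted p = 0.0738). The highest were *Mipep* (0.90, edgeR adjusted p = 0.128) and *Tpp1* (0.90, edgeR adjusted p = 0.0897). *Dnpep*, an aspartyl aminopeptidase and the member of that list with the highest FPKM, was at 448, 338 and 460 CPM in #1, #2 and #3 and at 416 in the control, so the control lay inside the range of the subclones. *Xpnpep1*, a proline-specific aminopeptidase, was at 494, 511 and 466 CPM against 341, a log2 fold change of 0.53 (edgeR adjusted p = 0.137). *Dpp7*, a dipeptidyl peptidase of intracellular vesicles, was at 310, 181 and 318 CPM against 153, with every subclone above the control, a log2 fold change of 0.82 and an adjusted p of 0.164 from edgeR.

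Zinc ectopeptidases and surface dipeptidyl peptidases cut peptides outside the cell, among them several substrates of THOP1. Of 14 such genes, 6 were tested and 8 had at most 9 counts in any library. Of the 6, 1 was called higher and 1 lower, where 14.5% of all genes tested were called. *Anpep*, aminopeptidase N, rose from 35 counts in the control to 263, 144 and 193 in the subclones (log2 fold change 2.29, standard error 0.54, edgeR adjusted p = 0.0363). *Ecel1*, a neprilysin-like gene expressed in neurons, fell, from 605 counts in the control to 0, 29 and 7 in the subclones (log2 fold change -5.89, standard error 1.06, edgeR adjusted p = 0.0207). Neither call held without #3. *Ecel1* was not called by DESeq2 or without a filter in edgeR, and *Anpep* was not called with the gene length correction or under any of the 3 limma settings.

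*Ece1*, endothelin-converting enzyme 1, was the most abundant of this list. It was at 449, 243 and 499 CPM in #1, #2 and #3 and at 171 in the control, each subclone being above it, with an adjusted p of 0.0940 from edgeR. *Mme*, neprilysin, was at 13 counts in the control and 2, 1 and 7 in the subclones, and *Mmel1* at 29 against 20, 50 and 19. Neither passed the test. *Trhde* and *Enpep* were at 0 counts in all libraries.

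**Figure D4:**
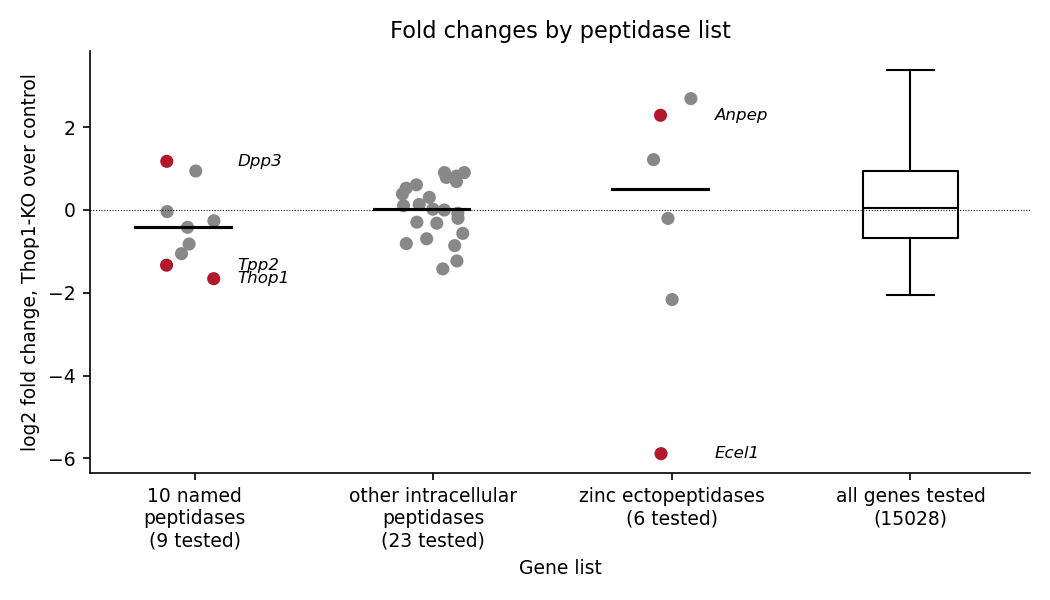
Log2 fold change of Thop1-KO over the control for each tested gene of 3 peptidase lists (points, red where the adjusted p is under 0.05, black bar at the median) and for all 15028 genes tested (box from -0.68 to 0.94 with the median at 0.06, whiskers at the 5th and 95th percentiles, -2.04 and 3.38). All 23 other intracellular peptidases lie between -1.42 and 0.90 and none is red.

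Precursors of the peptides that THOP1 is known to cut were mostly not detected in these cells. Of 10 rows for 9 genes, 6 were at 0 in all libraries, among them *Nts*, *Kng1*, *Penk* and *Sst*. *Pdyn*, the dynorphin precursor, was the most abundant, at 59.1, 32.6 and 49.5 CPM in #1, #2 and #3 and 47.1 in the control. Its log2 fold change was -0.00 (95% interval -0.86 to 0.86, edgeR adjusted p = 0.999). *Tac1*, the substance P precursor, was at 85 counts in the control and 1, 41 and 12 in the subclones, with an adjusted p of 0.172 from edgeR, and *Agt*, angiotensinogen, at 20 against 28, 14 and 13.

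Genes whose profile over the 4 libraries was most like that of *Thop1* were sought by the Euclidean distance of centred log2 CPM among 9442 genes with a symbol and a mean FPKM of at least 1. The nearest were *Rnf208* (distance 0.17), *Wbp4* (0.17), *Tex26* (0.18), *Kin* (0.20) and *Tex52* (0.22). *Rnf208* was at 15.8, 14.1 and 20.2 CPM in #1, #2 and #3 and at 49.0 in the control. For *Nln* the nearest were *Gpx8*, *Ppcs*, *Lamtor1*, *B4galt7* and *Snrnp35*, at distances of 0.04 to 0.05. With 4 libraries this is a description only, and no peptidase of the lists was among them.

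Promoter sequences were available for 9 of the 10 members in RefSeq, on the GRCr8 build, each covering 250 bases before the start and 50 from it on. Their median GC content was 68.7%, beside 61.0% for 10705 genes tested here and 51.7% for all 33469 promoters. The GC box GGGCGG, searched on both strands, was in 9 of the 9, in 62.3% of the promoters of tested genes and in 33.1% of all. The letters TATAAA were in 0 of the 9 in 6.83% of tested genes and in 14.2% of all. CCAAT was in *Thop1*, *Tpp2*, *Dpp3* and *Lap3*, 4 of the 9, beside 37.6% of tested genes and 37.5% of all. The E-box CACGTG was in *Nln* and *Lap3* (9.34% of tested genes, 6.42% of all), and the ETS core CCGGAAG in *Nln* and *Dpp3* (17.3% of tested genes, 8.75% of all). *Thop1* alone among them held the NRF1 palindrome, a known binding motif of that factor, which 0.852% of all promoters and 1.77% of those of tested genes hold. It is shown in capitals within 30 bases of the minus strand, chr7:9296096-9296125 in GRCr8, at positions -158 to -149 from the RefSeq start.
Thop1 promoter window: gctgtgttcgGCGCATGCGCaaaatctcac
These matches describe letters only, and binding was not measured.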

How the data were processed

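The authors deposited raw counts per gene and FPKM values. The paper credits read cleaning to the FASTX toolkit, and the submitters' processing notes name HISAT2 2.0.5 and featureCounts 1.5.0-p3. The genome build, the strand setting and the treatment of reads with several matches are not given in the sources used here, and the kit named in the labels does not mark strand. Within each library the deposited FPKM values were proportional to counts over gene length. Coordinates are those of the deposited annotation.

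The count table was fitted in R 4.3.3 by edgeR 4.0.16, with filterByExpr with a minimum count of 10, TMM and the robust quasi-likelihood test with Benjamini-Hochberg adjustment over all 15028 genes tested. Standard errors were the log2 fold change over the root of the F statistic. Fitting and calling were checked on simulated counts. With 2-fold changes, 8 of 187 changed genes were called, beside 7 unchanged genes. With 4-fold changes 94 of 192 were called, beside 14 unchanged genes, and with 8-fold changes 142 of 182, beside 21. With no change made, 3 of 14514 genes were called. Unchanged genes were thus a larger share of these calls than the threshold of 0.05 aims for. Most 2-fold changes were missed in the simulation. It changed a far smaller share of genes than the 14.5% called in the data, so these rates do not carry over. Alternatives used DESeq2 1.42.0 and limma 3.58.1. No pair of libraries was a duplicate (chi-square per degree of freedom at least 24.3).

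The members, lists and tests were chosen with earlier results of these data known. Genes named are the members, the neighbours of *Thop1*, the called genes of each list, up to 3 uncalled genes with the highest mean FPKM in the peptidase and precursor lists, and the 5 nearest profiles. Uncalled marker genes, genes at 0 counts, *Ide*, *Metap2*, *Mipep* and *Tpp1* were named after their values were seen. *Aopep*, *Pepd*, *Kng2*, *Zfp42* and *Col1a2* were not analysed here. Labels do not say whether libraries came from separate cultures. The p-values rest on the spread among the 3 subclones only, since the control is 1 library. The seed of the guides was taken as the 12 bases at the 3′ end.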

Additional observations from a re-analysis of the deposited data

How the results depend on the processing

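With 1 control library, the calls rest on the spread of 3 subclones. No paired analysis was possible because the control has 1 library. The number of DEGs was 2174 and moved to 1255 with limma on log2(FPKM + 0.1), 697 with limma without a filter, and 4036 at an unadjusted p under 0.05 with a fold of 2; leaving out 1 subclone gave 459 to 5563. Of the members, 3 were called, 0 under those limma settings, and 1 to 5 without a subclone: *Prep* and *Blmh* were added without #2, and *Thop1* alone was left without #3. The share of all genes called was 14.5% with all libraries. It was 13.6% without #1, 37.8% without #2 and 3.11% without #3. The log2 fold change of *Thop1* stayed between -1.93 and -1.51 over 14 alternatives and lost its call in 2 of them, at -1.69 (limma with 0.1) and -1.67 (limma without a filter). *Prep* also passed with library size only and with no filter in edgeR. *Npepps* turned from -0.040 to 0.032 with library size only and ran from -0.058 to 0.0062 when 1 subclone was left out, the last without #1. *Lnpep*, with no counts, gave no value under any alternative. *Nln*, *Erap1* and *Lap3* were called under no alternative.

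Among other intracellular peptidases, 0 were called, with 1 without a filter, 2 with the gene length correction, 2 with DESeq2, 2 at an unadjusted p under 0.05 with a fold of 2, and 0 to 7 without a subclone. Of the 6 ectopeptidases tested 2 were called, beside 14.5% of all genes. There was 1 with no filter, at least 10 counts in every library, the gene length correction, or any of the 3 limma settings. DESeq2 also called 2, both higher, so *Ecel1* was not among them. Without a subclone 0 to 3 ectopeptidases were called, beside 3.11% to 37.8% of all genes in those fits. The median of all genes was 0.06 on the log2 scale over 15028 genes. It moved by over 0.1 with no filter (0.19) and DESeq2 (0.17), both taken over 19903 genes, and with the gene length correction (-0.09). In edgeR with DESeq2 size factors, over 15028 genes, it was 0.04. The share of DEGs that were higher was 61.8%, 52.7% with the gene length correction, 75.5% with limma on log2(FPKM + 0.1), 16.4% with limma without a filter and 78.2% without #3. The fit without robust estimation, added after the data were seen, called 2072 genes and the same 3 members. The cause of these moves was not tested.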
